A study of Sus scrofa with 9 samples.

Results

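The sperm tail is built late in spermatogenesis, and the genes examined here encode its parts and the machinery that assembles and shapes it. Members were the genes of a porcine testis array whose gene name begins with the symbol of an axonemal dynein, tektin, outer dense fibre, A-kinase anchor (AKAP), SPAG, SPATA, TSSK, tubulin, kinesin, intraflagellar transport (IFT), radial spoke, cytoplasmic dynein or CRISP gene, or with SMCP, CAPZA3, ROPN1 or MEIG1. The match used names and not expression, but the list of names was set with earlier results of these data known. Of 49437 distinct gene names on the array, 74 matched, with 143 probes, and 66 of them had a probe in the log2 table that the authors deposited. These 66 genes are the members, each read by its probe of highest mean in that table; 41 of them had a single probe there. All 66 passed the filter on low signal and were tested.

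Total RNA from testicular biopsies was hybridized to 9 single-colour arrays, 3 for each of 3 groups. The t(1;14) arrays came from 1 boar with a reciprocal translocation between chromosomes 1 and 14 and oligo-astheno-teratospermia, that is, few, poorly motile and malformed sperm; its 3 arrays hold separate samples of that animal. The control arrays came from boars with a normal karyotype and normal semen, and the oligospermic arrays are labelled with a low sperm count and a normal karyotype. The methods describe 3 fertile control boars. The sources used here do not tie a control array to one of them, and they do not give the number of oligospermic boars. The p-values therefore compare arrays and not populations of animals. Strain and age are not analysed here.

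In the mature tail, a microtubule axoneme with dynein arms, radial spokes and a central pair is flanked by outer dense fibres and, further along, by a fibrous sheath that anchors signalling and glycolytic enzymes. Many of these proteins are made mainly in spermatids, often from mRNA transcribed earlier and stored, so their transcripts are abundant in a testis with full spermatogenesis. Kinesins, cytoplasmic dynein, IFT proteins and tubulins also serve in other cells and in other processes, including division.

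The array reads each gene with an oligonucleotide of 60 bases. The probes below, as deposited, belong to members that carry the main results: the fibrous sheath, dense fibre, axoneme and spermiogenesis genes that fell, the kinesin gene with the largest fall, the kinesin gene that rose, and a pair of beta-tubulin probes. They are printed in the direction of the deposited file, and nothing in them is marked by capitals. The files give no map position for any probe, so none is stated.
AKAP3: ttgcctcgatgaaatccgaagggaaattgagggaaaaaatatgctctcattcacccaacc
AKAP4: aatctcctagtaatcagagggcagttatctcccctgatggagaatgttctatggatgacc
CRISP2: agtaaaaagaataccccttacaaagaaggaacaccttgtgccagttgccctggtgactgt
ODF2: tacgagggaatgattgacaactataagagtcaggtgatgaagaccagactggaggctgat
DNAI2: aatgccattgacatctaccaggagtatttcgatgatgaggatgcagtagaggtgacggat
TEKT2: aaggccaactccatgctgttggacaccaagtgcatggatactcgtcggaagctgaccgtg
TSSK2: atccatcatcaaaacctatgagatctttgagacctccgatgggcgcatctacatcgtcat
CAPZA3: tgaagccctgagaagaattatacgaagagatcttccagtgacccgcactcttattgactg
SPATA25: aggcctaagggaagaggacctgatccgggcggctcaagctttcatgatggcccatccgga
KIF14: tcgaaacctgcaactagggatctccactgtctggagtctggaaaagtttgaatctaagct
KIF21A: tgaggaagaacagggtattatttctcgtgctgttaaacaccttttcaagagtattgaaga
TUBB2A: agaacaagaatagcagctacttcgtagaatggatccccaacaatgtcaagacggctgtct
TUBB2B: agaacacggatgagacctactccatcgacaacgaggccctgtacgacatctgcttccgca

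The shares of G and C in these probes lay between 36.7% (KIF21A) and 60.0% (SPATA25). Over all 66 members the share was 35% to 60.0% with a median of 44.2%. The 10 members with the largest falls in t(1;14) had a median of 45.0% and the 4 that rose a median of 37.5%.

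Between 37087 and 40632 of 60889 probes per array were well above background, with overlapping ranges in the 3 groups. The arrays sat on 3 slides, and every slide carried all 3 groups. The median SD of a probe within a group was 0.24 in controls, 0.18 in the oligospermic group and 0.13 in t(1;14), on the scale of log2 signal after quantile normalization, which is the scale of every level below. Differences are log2 fold changes with their SE from 1 limma model of all 9 arrays, and a gene "passed" at a Benjamini-Hochberg adjusted p of at most 0.01 over the 41105 probes tested. The study's stricter rule also asks for a log2 fold change of 2 or more in either direction, and is called the 2-threshold rule here. The median over all tested probes was 0.13 in t(1;14) against control, and 0.00 in oligospermic against control.

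Compared with the controls, the t(1;14) testis had lower signal for 37 of the 66 members and higher signal for 4, and 25 did not pass. Over all tested probes, 18.5% passed lower and 20.0% higher. All 37 lower members were below every control array, and the 4 higher members were above every control array. The same direction on each of the 3 slides follows from that separation and is no further evidence. These members were picked by their difference from the controls, so the separation is no independent result. The fitted falls ran from -0.52 (KIF2A) to -2.63 (AKAP3), and the rises from 0.62 (TUBA1B) to 1.13 (KIF21A). The median of all 66 members was -0.70. Counting every member, whether it passed or not, 45 had t(1;14) arrays entirely below the controls and 9 entirely above, where all probes gave 26.2% and 35.4%. By the 2-threshold rule, 10 members were called lower and 0 higher, against 4.41% and 1.41% of all probes, or 5.82% in either direction. With slide as a block, 38 members passed lower and 5 higher, beside 8215 and 9564 of all 41105 probes. These are biopsies of whole tissue, in which fewer cells of a type and less RNA per cell cannot be told apart.

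All 4 genes of the fibrous sheath and midpiece passed lower in t(1;14) against control, with a median of -1.97. AKAP3, a scaffold of the fibrous sheath that binds protein kinase A, had levels of 9.73, 10.04 and 9.86 on the control arrays, 9.39, 9.34 and 9.65 on the oligospermic arrays and 7.37, 7.29 and 7.07 on the t(1;14) arrays. The t(1;14) arrays lay far below both other groups, and the change against control was -2.63 ± 0.14 (SE; limma adjusted p = 5.39e-06), a 6.20-fold lower signal. AKAP4, the main sheath protein and an X-linked gene, read 9.0, 9.43 and 8.96 in controls, 8.96, 8.88 and 9.17 in oligospermic and 6.92, 6.97 and 6.69 in t(1;14), a change of -2.27 ± 0.16. Control and oligospermic arrays were intermixed for AKAP4 and the t(1;14) arrays were separate. CRISP2, a protein of the acrosome and the tail, went from 15.86, 15.63 and 15.50 in controls to 13.98, 14.02 and 13.96 in t(1;14), and SMCP, a cysteine-rich protein of the mitochondrial sheath, from 15.58, 15.75 and 15.89 to 14.39, 14.26 and 14.36. Their changes of -1.68 ± 0.15 and -1.40 ± 0.11 were several times their errors, and in both genes the oligospermic arrays (15.58 to 16.02 and 15.80 to 15.88) overlapped the controls.

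Of the outer dense fibre genes, 2 of 3 passed lower. ODF2, a major dense fibre protein that also occurs at centrosomes, read 15.10, 15.36 and 15.43 in controls, 15.04, 15.39 and 15.59 in oligospermic and 12.96, 12.94 and 12.92 in t(1;14). The t(1;14) arrays differed from one another by less than the controls did, and the change was -2.36 ± 0.16 (limma adjusted p = 1.06e-05). ODF4, a membrane protein of the sperm tail, changed by -1.45 ± 0.15. ODF2L, a relative of ODF2 that acts at centrioles, gave -0.37 ± 0.14 and did not pass on its chosen probe (limma adjusted p = 0.047), while 3 of its 5 probes passed lower and all 5 lay between -0.87 and -0.37.

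All members of the axoneme itself passed lower, from -0.60 (DNAH9) to -1.94 (DNAI2). The 4 axonemal dynein genes had a median of -0.91. DNAI2, an intermediate chain of the outer dynein arm, read 8.60, 9.85 and 8.18 in controls, 9.12, 9.09 and 9.28 in oligospermic and 6.87, 7.09 and 6.85 in t(1;14). Control replicate 2 stood above the rest, and the SD of the controls was 0.87. The change of -1.94 ± 0.36 became -1.45 without control replicate 2, and did not pass without t(1;14) replicate 3 (limma adjusted p = 0.0105). The light chains DNAL1 and DNAL4 changed by -1.0 ± 0.15 and -0.81 ± 0.12, and the heavy chain DNAH9 by -0.60 ± 0.13.

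For the central pair and the radial spokes, 4 of 4 genes passed lower with a median of -1.05. SPAG17, a central pair protein, read 12.82, 12.81 and 12.66 in controls, 12.73, 12.53 and 12.85 in oligospermic and 11.40, 11.46 and 11.31 in t(1;14), a change of -1.37 ± 0.12. SPAG6, its partner in the central pair, read 14.78, 14.82 and 14.97, then 14.85, 14.85 and 15.01, then 14.02, 13.95 and 14.05 in the same order of groups, a change of -0.85 ± 0.10. In both, t(1;14) was separate and the other groups overlapped. The radial spoke genes RSPH3 and RSPH9 changed by -1.26 ± 0.13 and -0.75 ± 0.14. TEKT2, a filament protein of the axonemal doublets and the only tektin member, read 13.57, 13.54 and 13.50 in controls, 13.64, 13.42 and 13.68 in oligospermic and 12.29, 12.50 and 12.04 in t(1;14), a change of -1.26 ± 0.14.

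TSSK2, a testis-specific kinase of spermatids, had the smallest adjusted p of all members. It read 13.03, 13.01 and 12.84 in controls, 12.97, 12.89 and 13.09 in oligospermic and 10.46, 10.37 and 10.39 in t(1;14). The 6 control and oligospermic arrays formed 1 range and the t(1;14) arrays lay below it, with a change of -2.55 ± 0.10 (limma adjusted p = 4.74e-06). CAPZA3, the germ cell subunit of the actin capping complex that shapes the sperm head and neck, changed from 15.11, 15.12 and 14.83 in controls to 13.33, 13.43 and 13.39 in t(1;14), by -1.63 ± 0.11. Its oligospermic arrays, at 15.06, 14.92 and 15.04, overlapped the controls.

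**Figure D1:**
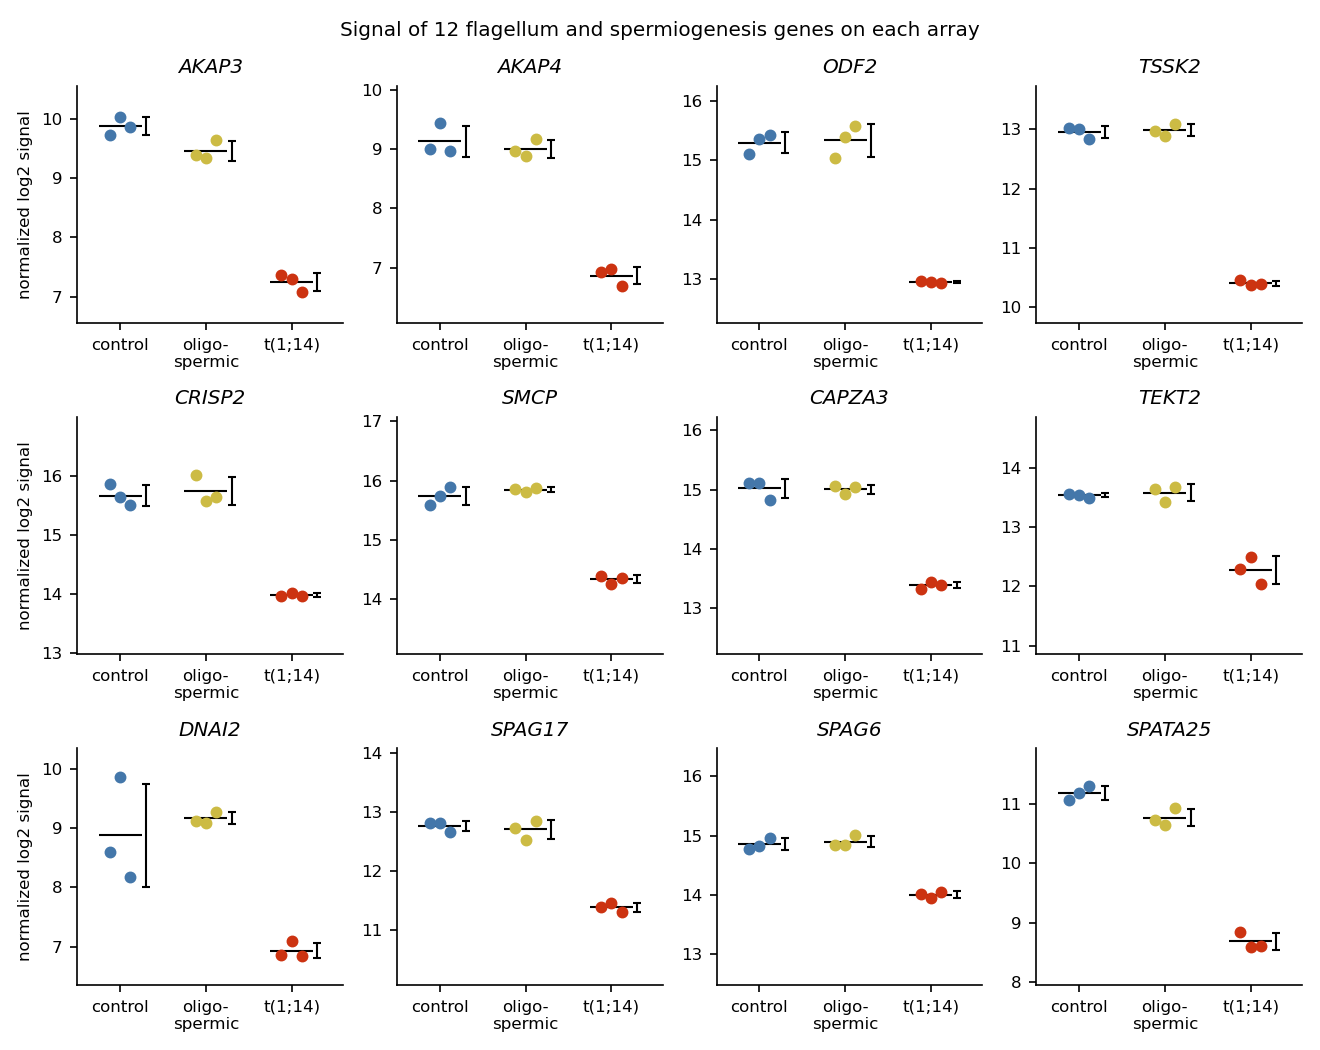
Normalized log2 signal (y axis, 4 units in every panel) of 12 members on each array, with the arrays of replicates 1 to 3 from left to right within a group, the group mean as a line and the SD beside it. The t(1;14) points lie below every control and oligospermic point in all 12 panels, from a change of -0.85 for SPAG6 to -2.63 for AKAP3, and DNAI2 shows the wide control group.

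Over these 18 axoneme, tail and shaping genes together, 17 passed lower and 0 higher in t(1;14) against control, with a median of -1.39. The exception was ODF2L, by its chosen probe. Over all tested probes, 18.5% passed lower and 20.0% higher. The group was set with earlier results of these data known. Only DNAI2, DNAL1, DNAH9 and RSPH9 among the 17 lost their call under at least 1 of the 19 alternative settings of the analysis, each keeping its direction.

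The SPATA genes, named for their association with spermatogenesis rather than for a common structure, passed lower in 5 of 7 cases. SPATA25 read 11.07, 11.19 and 11.30 in controls, 10.73, 10.65 and 10.94 in oligospermic and 8.84, 8.59 and 8.61 in t(1;14). Its oligospermic arrays lay just below the controls without passing, and its change in t(1;14) was -2.50 ± 0.13. SPATA20, a sperm protein related to thioredoxin, read 13.82, 13.69 and 13.48 in controls and 11.52, 11.73 and 11.47 in t(1;14), a change of -2.09 ± 0.19. SPATA18, which acts in mitochondrial quality control, read 15.35, 15.57 and 15.29 in controls, 15.83, 15.53 and 15.62 in oligospermic and 13.47, 13.48 and 13.48 in t(1;14), a change of -1.92 ± 0.12. SPATA16, an acrosome formation protein, and SPATA4 changed by -1.33 ± 0.15 and -1.22 ± 0.13. The exceptions were SPATA22, a meiotic recombination factor at 0.44 ± 0.12 (limma adjusted p = 0.0145), and SPATA5L1 at -0.06 ± 0.14.

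The remaining SPAG and CRISP members were mixed. SPAG1, a cytoplasmic factor that pre-assembles dynein arms, read 12.72, 13.08 and 12.73 in controls, 12.79, 12.83 and 13.06 in oligospermic and 10.47, 10.55 and 10.50 in t(1;14), a change of -2.34 ± 0.13 with no overlap between t(1;14) and the others. SPAG5, a protein of the mitotic spindle, changed by -0.99 ± 0.17. SPAG11, a defensin-like gene best known from the epididymis, gave 0.26 ± 0.13 and did not pass. CRISP3, a secreted relative of CRISP2, read 5.96, 5.61 and 5.79 in controls and 3.95, 3.96 and 3.91 in t(1;14), where only 2 of 3 arrays were well above background, a change of -1.85 ± 0.13. CRISP1 had t(1;14) levels of 3.38, 4.49 and 5.46 and no resolved difference (-0.24 ± 0.47).

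The 36 transport, microtubule and anchor genes moved in both directions: 12 passed lower (33.3%), 4 passed higher (11.1%) and 20 did not pass, with a median of -0.27. Over all tested probes, 18.5% passed lower and 20.0% higher, and the counts of the single groups below stand beside the same shares. Of the IFT genes, which carry cargo along the growing tail, only IFT57 passed on its chosen probe. It read 15.18, 15.18 and 15.07 in controls, 15.44, 15.37 and 15.30 in oligospermic and 14.40, 14.56 and 14.38 in t(1;14), with the 3 groups in separate ranges and a change of -0.70 ± 0.10 in t(1;14). IFT80, IFT52 and IFT122 gave -0.29 ± 0.13, -0.24 ± 0.10 and -0.11 ± 0.10. Other probes of 2 of these genes passed lower, 1 of 2 for IFT80 (-0.74) and 2 of 3 for IFT52 (-0.51 and -0.66).

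Of the 16 kinesin members, 6 passed lower and 1 higher. KIF14, a motor of cytokinesis, read 9.16, 9.83 and 9.32 in controls, 9.24, 9.28 and 9.57 in oligospermic and 6.98, 6.76 and 6.85 in t(1;14). It was the only kinesin called by the 2-threshold rule, at -2.58 ± 0.18 (limma adjusted p = 1.47e-05), and its control and oligospermic arrays overlapped. KIF27, KIF5B, KIF3B, KIF23 and KIF2A passed at -1.48 ± 0.17, -1.09 ± 0.18, -0.97 ± 0.14, -0.64 ± 0.14 and -0.52 ± 0.11. KIF5B is a heavy chain of kinesin-1, KIF3B a subunit of the kinesin that moves IFT trains, and KIF23 a motor of the midzone of dividing cells. In the other direction, KIF21A, a motor known from neurons, read 9.77, 9.18 and 9.34 in controls, 9.76, 9.48 and 9.30 in oligospermic and 10.38, 10.71 and 10.60 in t(1;14), a change of 1.13 ± 0.19. KIF13B had a fitted change of similar size, 1.19 ± 0.36, that did not pass, and its control levels ran from 3.26 to 4.98 with 2 of 3 control arrays well above background.

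The cytoplasmic dynein members held 1 gene that fell and 1 that rose. DYNLL1, a light chain that dynein shares with many other complexes, read 15.65, 15.56 and 15.52 in controls, 16.08, 15.69 and 15.76 in oligospermic and 14.84, 14.99 and 14.82 in t(1;14), a change of -0.70 ± 0.13. Saturation of 1 oligospermic spot makes its level there a lower limit, and the call against control was lost without t(1;14) replicate 1 or 3. DYNLRB1, a roadblock light chain, read 12.47, 12.18 and 12.16, then 12.10, 12.10 and 12.01, then 13.11, 13.05 and 13.08, a change of 0.81 ± 0.11. DYNC1H1, the heavy chain of the motor, gave -0.11 ± 0.13.

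Among tubulins, the beta-tubulin TUBB2B read 14.29, 14.32 and 14.10 in controls, 14.13, 14.11 and 14.15 in oligospermic and 13.00, 12.92 and 12.91 in t(1;14), a change of -1.29 ± 0.10. The probe named TUBB2A, whose accession is that of TUBB in RefSeq, changed by -1.12 ± 0.12. TUBA1B, an alpha-tubulin of most cells, rose from 13.96, 13.70 and 13.81 to 14.39, 14.50 and 14.42, by 0.62 ± 0.11, with oligospermic arrays at 13.82, 13.89 and 13.70 inside the control range. Tubulin genes are near-identical over long stretches, so a probe may read more than 1 of them.

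The A-kinase anchors outside the fibrous sheath were also divided. AKAP12, a membrane scaffold, read 12.03, 12.42 and 11.71 in controls, 11.48, 11.62 and 11.80 in oligospermic and 9.88, 9.90 and 9.82 in t(1;14), a change of -2.19 ± 0.18. AKAP1, which tethers protein kinase A to mitochondria, read 6.95, 7.31 and 7.14 in controls, 6.99, 6.80 and 7.06 in oligospermic and 4.84, 5.64 and 4.54 in t(1;14), a change of -2.13 ± 0.26. Both were called lower by the 2-threshold rule, as AKAP3 and AKAP4 were. AKAP1 lost that call without t(1;14) replicate 3 (-1.90), and AKAP12 fell just short of it without control replicate 2, whereas AKAP3 (-2.55 at the smallest) and AKAP4 (-2.12) kept it with each array left out. AKAP9, a centrosome and Golgi scaffold, rose by 0.63 ± 0.14 from 9.73, 9.43 and 9.49 to 10.01, 10.34 and 10.19. The rise of AKAP9 lost its call in 7 alternative settings, with adjusted p-values up to 0.0207 in limma.

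**Figure D2:**
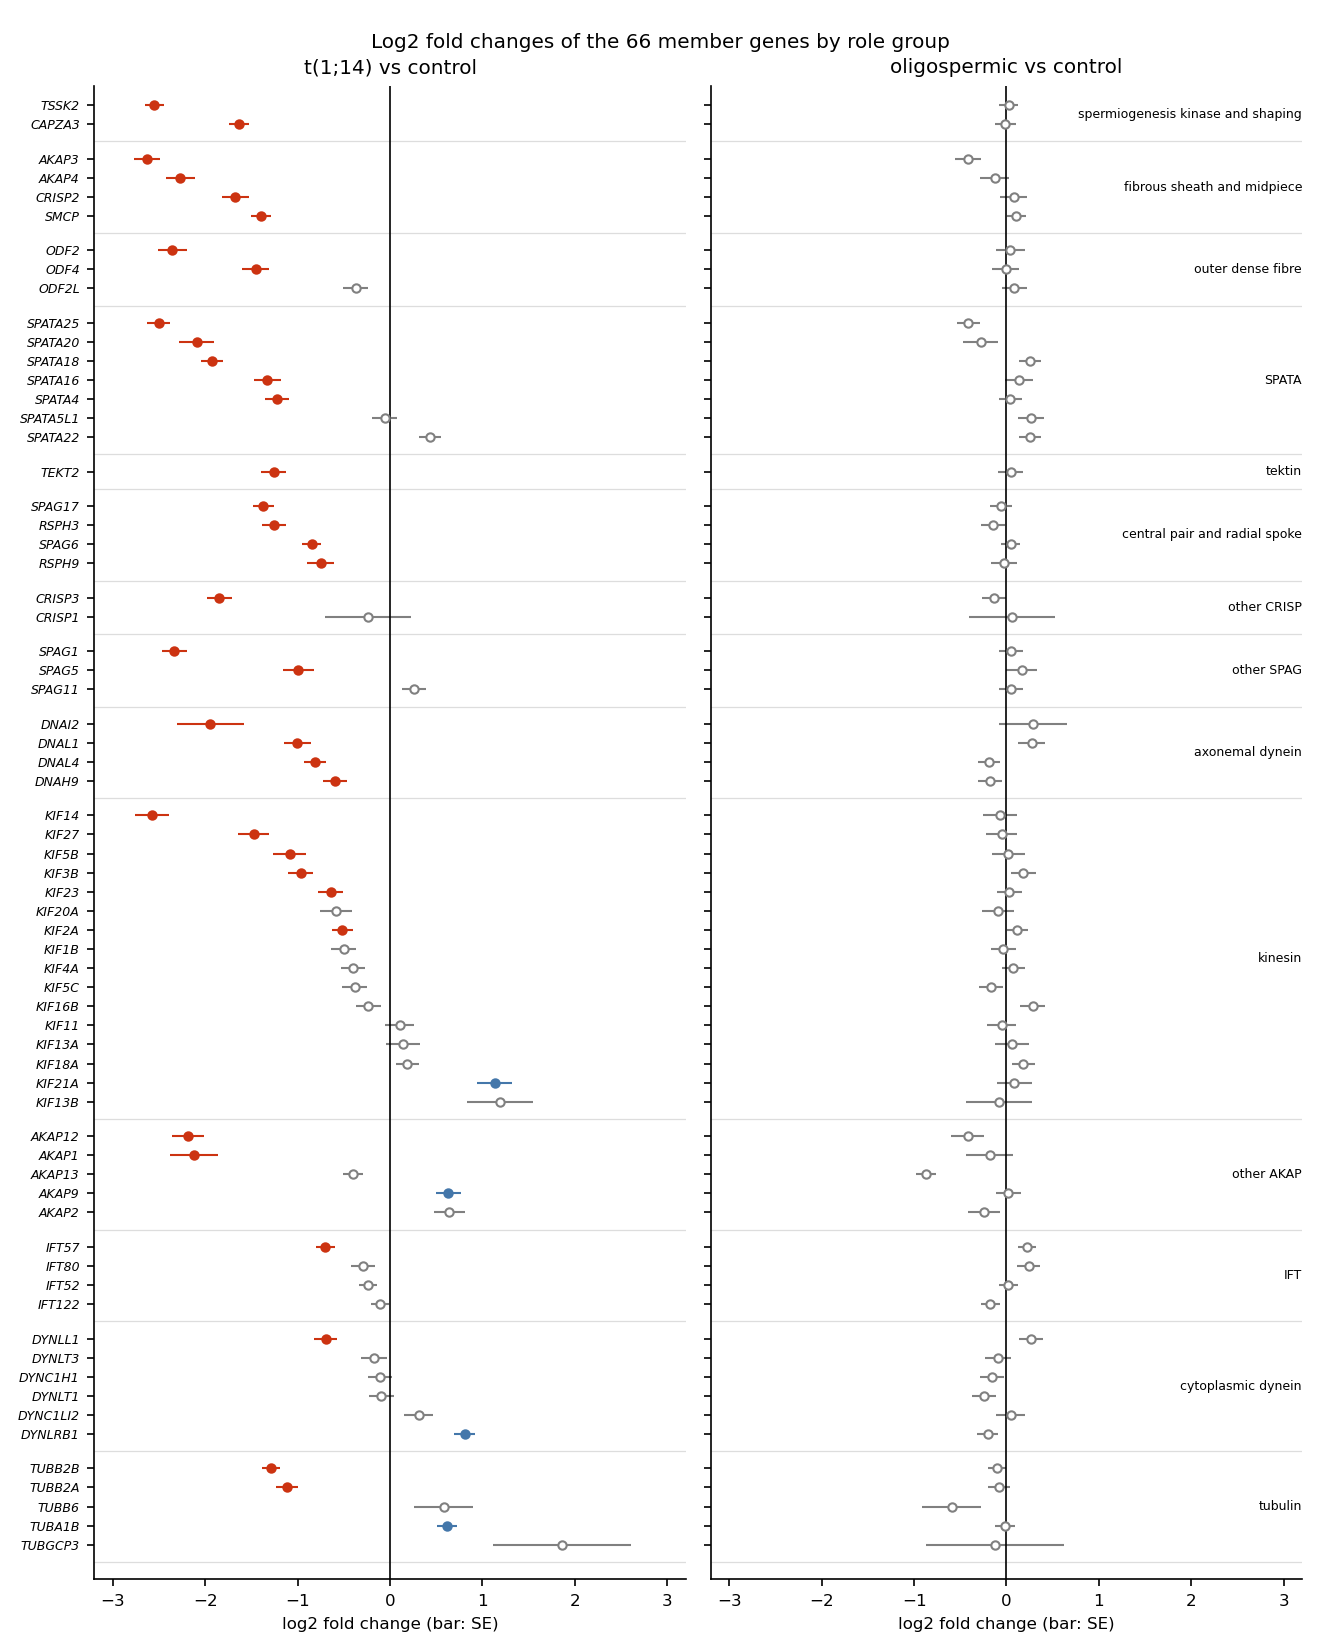
Log2 fold change (x axis) and SE (bar) of all 66 members in t(1;14) against control (left) and oligospermic against control (right), grouped by role; filled red points passed lower, filled blue points passed higher and open points did not pass. In the left panel 37 points are red and 4 blue, with the axoneme, tail and shaping groups on the lower side; in the right panel no point is filled and AKAP13 lies farthest from 0.

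Genes with several probes gave a check within the same RNA. All tested probes passed in the direction of the chosen probe for CRISP2 (3 probes, -1.68 to -1.45), RSPH3 (4 probes, -1.49 to -1.22), SPATA16 (3 probes, -1.53 to -1.15), SPAG5 (3 probes, -1.32 to -0.99), KIF21A (3 probes, 1.06 to 1.14) and DYNLRB1 (3 probes, 0.51 to 0.81). For 13 members, a probe listed under another name or an accession shared a run of at least 30 bases with the chosen probe. All 15 such probes had the sign of the member in t(1;14) against control, and the fitted changes of a pair differed by at most 0.17, with a median of 0.04. In 8 of these pairs all 60 bases were shared: SPATA25 gave -2.50 and -2.49, SPATA20 -2.09 and -2.06, and SMCP -1.40 and -1.31. These pairs measure the error of the spot and not of the animal.

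Other genes depended on the probe. ODF2 had 2 probes at -2.36 and -2.27 and a dimmer one at -0.51 that did not pass. The 5 AKAP13 probes ran from -1.67 to -0.17, and 3 of them passed lower, but not the chosen one (-0.40). The 4 TUBB2A probes ran from -1.20 to 0.63, with 2 passed lower and 1 higher, so that no direction can be given for the gene. TUBB2A is counted among the 37 lower members by its chosen probe. Nor can a direction be given for TUBGCP3, a component of the gamma-tubulin ring, where 6 probes ran from -0.71 to 1.86 and 2 passed in each direction. Its chosen probe read 10.15, 13.36 and 10.18 on the t(1;14) arrays, and a probe that shares 57 of its bases read 10.23, 10.21 and 10.15 on the same arrays, so the level of t(1;14) replicate 2 on the chosen probe was not repeated. TUBA1B had 15 tested probes from -0.42 to 0.65, of which 7 passed higher and 0 lower.

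**Figure D3:**
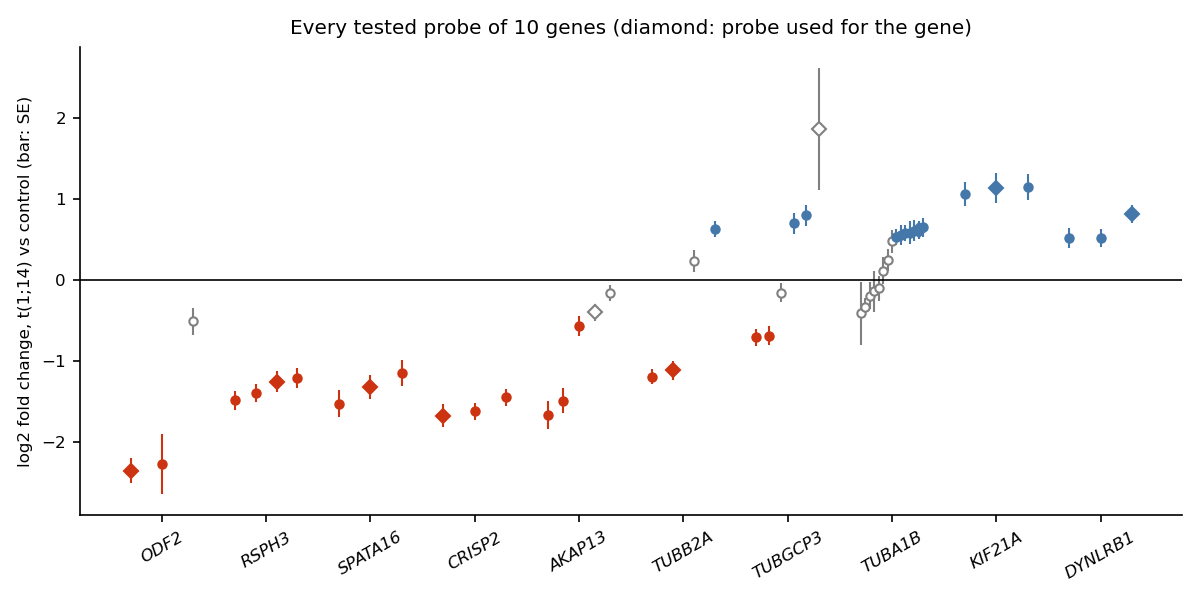
Log2 fold change of t(1;14) against control (y axis, bar SE) for every tested probe of 10 members, with a diamond for the probe that stands for the gene and filled points for probes that passed. The probes of RSPH3, SPATA16 and CRISP2 stay together below -1 and those of KIF21A above 1, whereas TUBB2A and TUBGCP3 have filled points on both sides of 0.

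In the oligospermic group, 0 of 66 members passed lower and 0 higher by limma, where all probes gave 0.0973% and 0.127%. The 2-threshold rule also called 0 members, against 0.0462% of all probes lower, 0.0657% higher and 0.112% in either direction. At an unadjusted p under 0.05 there were 4 members, all lower (AKAP13, AKAP12, AKAP3 and SPATA25), beside 5331 of all 41105 probes. The median of the members was 0.01. The arrays lay entirely below the controls for 5 members and entirely above for 3, against 7.66% and 7.87% of all probes. The closest to a call was AKAP13, an A-kinase anchor, at 11.82, 12.07 and 11.96 in controls and 11.03, 11.03 and 11.18 in oligospermic, a difference of -0.87 ± 0.11 (limma adjusted p = 0.0109). It passed when control replicate 1 was left out and in 3 other settings, and its other 4 probes did not fall by as much, the range over the 5 being -0.87 to -0.06.

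For the 18 axoneme, tail and shaping genes the oligospermic differences ran from -0.42 (AKAP3) to 0.29 (DNAI2). The upper end rested on the control arrays, since DNAI2 was 0.77 without control replicate 2 and -0.06 without control replicate 3. The 95% confidence intervals of 17 of them lay within 1 log2 unit on either side of 0, and the exception was DNAI2, whose interval reached 1.12. Set beside those values, the same genes in t(1;14) ran from -2.63 to -0.37.

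The direct comparison of t(1;14) with the oligospermic arrays, which shares the t(1;14) arrays with the comparison above, passed 37 members lower and 6 higher, where all probes gave 19.9% and 22.8%. With slide as a block the counts were 40 and 6, beside 9144 and 10806 of all probes. By the 2-threshold rule 9 members were called lower and 0 higher, against 4.69% and 1.84% of all probes, or 6.53% in either direction, and the median was -0.70. The t(1;14) arrays lay entirely below the oligospermic arrays for 46 members and entirely above for 11, where all probes gave 30.1% and 40.2%. Of the 18 axoneme, tail and shaping genes, 16 passed lower, with DNAH9 (-0.42, limma adjusted p = 0.0229) and ODF2L (-0.46, limma adjusted p = 0.0196) as the exceptions. TSSK2 had the largest difference at -2.58, followed by KIF14 at -2.50 and ODF2 at -2.40. KIF21A, DYNLRB1 and TUBA1B passed higher at 1.05, 1.01 and 0.63, and in all 19 alternative settings. AKAP2 and AKAP9, at 0.88 and 0.61, also passed but lost the call in at least 1 setting. AKAP13 passed at 0.47 on its chosen probe and lost the call in some settings, and its 5 probes ran from -1.54 to 0.47 with 2 passed lower, so no direction can be given for it. The number of higher members was 3 without oligospermic replicate 2.

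Chromosomes 1 and 14, which are rearranged in the t(1;14) boar, carry 7 and 4 of the members in RefSeq. In t(1;14) against control, 4 of the 7 and 2 of the 4 passed lower and 0 higher, with ODF2 on chromosome 1 and TSSK2 on chromosome 14. The medians were -0.64 on chromosome 1 and -0.30 on chromosome 14. Of the 3 members on the X chromosome, AKAP4 passed lower, and their median was -0.40. The 51 members on other chromosomes gave 30 lower and 4 higher with a median of -0.81. Over all tested probes, 18.5% passed lower and 20.0% higher. The remaining member, DYNC1H1, has no chromosome in the RefSeq table.

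Other genes of the tail and of spermiogenesis came from a list of 75, of which 22 were on the array and tested. They gave 11 lower and 2 higher in t(1;14) against control, with a median of -0.78, beside 18.5% and 20.0% of all probes. By sublist, axoneme assembly and structure gave 3 lower of 6 (median -0.78), fibrous sheath, tail energy and channels 6 lower and 1 higher of 9 (median -0.95), and head shaping and regulators of spermiogenesis 2 lower and 1 higher of 7 (median -0.11). The pore proteins of the sperm calcium channel passed lower in 3 of 4 cases, CATSPER1 at -2.46, CATSPER4 at -2.13 and CATSPER3 at -2.06, with CATSPER2 at -0.10 and not passed. ADCY10, the soluble adenylyl cyclase that drives motility, changed by -1.21, PIH1D3, a dynein arm assembly factor, by -1.79, and CREM, a transcription factor of spermatids, by -1.55. The axoneme genes CCDC39 (-0.52), CCDC114 (-0.18) and LRRC6 (-0.85) did not pass, nor did HOOK1, MYBL1, PIWIL1 and CLGN of the last sublist. SLC26A3, an anion exchanger, was well above background on all 3 t(1;14) arrays and on no control array, which gives a signal at least 3.69-fold higher. It was tested only because of its signal in t(1;14), so its count among the higher genes is no independent result. TBPL1, a TBP-like factor of spermatids, rose by 0.44. None of the 22 passed in oligospermic against control by limma. CATSPER1 is also in the spermatid marker list, and LDHC and PGK2 in that of spermatocytes.

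Cell type markers were read beside the members, where 18.5% of all tested probes passed lower and 20.0% higher in t(1;14) against control. Of 8 spermatid markers tested, 6 passed lower in t(1;14) against control and 0 higher, and the median was -1.63 over the 6 markers with no saturated spot. ACRV1 and CATSPER1 changed by -2.40 and -2.46, and ZPBP2 (-0.30) did not pass. The protamine gene PRM2 was saturated on all control and oligospermic arrays and on 1 t(1;14) array, so no change is given for it, and TNP2 was saturated on 1 control and 3 oligospermic arrays. The summed level of all 8, the log2 of the summed linear signals, was 18.13 to 18.20 in controls, 18.15 to 18.24 in oligospermic and 17.23 to 17.36 in t(1;14), values that saturation makes lower limits. Over the 6 markers with no saturated spot it was 17.28 to 17.32, 17.33 to 17.49 and 16.22 to 16.34. Spermatocyte markers were divided (2 lower, 1 higher of 4), and 2 of 4 spermatogonial markers passed higher. The spermatocyte gene SPO11, which starts meiotic recombination, was the marker that passed in oligospermic against control, at -2.14, and it changed by -1.03 in t(1;14). Of 6 Leydig cell markers 5 passed higher, with a median of 2.57 over these 5, led by STAR at 3.72. The other, INSL3, was saturated on 2 t(1;14) arrays and 1 oligospermic array, which caps its level there. The summed level of all 6 was 15.89 to 15.96 in controls, 15.55 to 15.97 in oligospermic and 16.90 to 17.00 in t(1;14), and over the 5 without INSL3 it was 12.56 to 12.93, 12.52 to 13.14 and 15.62 to 15.82. Of 6 Sertoli markers only WT1 passed (-1.43), peritubular and vascular markers gave 1 lower and 2 higher of 6, immune markers 0 lower and 1 higher of 2, and the 2 rete and epididymal markers did not pass. In t(1;14) against oligospermic, spermatid markers gave 6 lower of 8 and Leydig markers 5 higher of 6, beside 19.9% and 22.8% of all probes. The epididymal gene LCN5 read 7.57, 3.91 and 5.95 in controls, 8.60, 8.58 and 8.79 in oligospermic and 4.21, 4.49 and 4.22 in t(1;14), and passed lower in that comparison at -4.35. The defining genes of each list were well above background in every group, except the rete and epididymal genes PAX2 and LCN5, which were so on 2 of 3 arrays in some groups. The part of cell composition in the changes of the members was not tested.

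**Figure D4:**
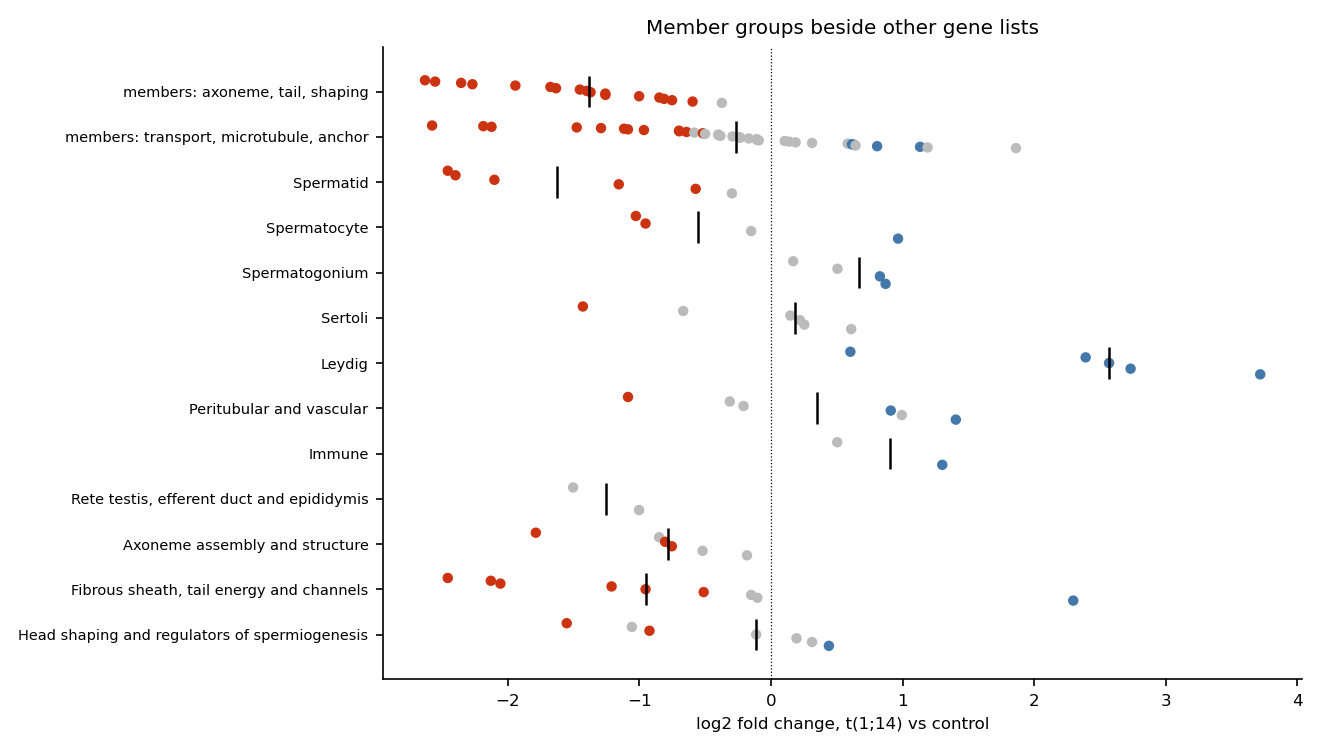
Log2 fold change of t(1;14) against control (x axis) for single genes of 2 member groups and of the other gene lists, with red for passed lower, blue for passed higher, grey for not passed and a line at each median; the 3 markers with a saturated spot are left out. The medians are -1.39 for the axoneme, tail and shaping members, -0.27 for transport, microtubule and anchor members, -1.63 for spermatid markers and 2.57 for Leydig markers.

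The 8 matching genes that had no probe in the deposited log2 table were read from the scanner signal. ODFP, an outer dense fibre gene, had levels of 14.03, 14.09 and 13.83 in controls, 14.09, 14.00 and 14.06 in oligospermic and 11.42, 11.57 and 11.41 in t(1;14), a change of -2.52 ± 0.11 (limma adjusted p = 4.74e-06). ROPN1, a fibrous sheath protein that binds AKAP3, had 16.17, 15.80 and 15.90, then 16.31, 15.71 and 15.92, then 14.27, 14.36 and 14.06, a change of -1.72 ± 0.18. Both had t(1;14) arrays below all others and overlapping control and oligospermic arrays. RSPH4A, a radial spoke gene, was well above background on 2 control arrays and on no other array, and its signal there was too near background for a fold. AKAP5 and TUBB1 were above background on no array, and CRISPLD1, KIF24 and KIF7 did not pass in t(1;14) against control.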

How the data were processed

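Testis RNA labelled with cyanine 3 was hybridized to single-colour Agilent arrays, which the authors read with Feature Extraction 11.5.1.1. The deposited intensity values are background-subtracted and detrended by that software, with flags for spots well above background, saturated or outlying. The authors also deposited log2 values for 38759 probes; after sorting, the 9 columns differ by no more than 0.0016 at each rank, as quantile normalization leaves them, and they follow the log2 processed intensity of the same array at r = 0.9998 or more. Their column medians are all 7.87. The submitters' processing notes name limma.

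Here log2 processed intensities were quantile normalized over 9 arrays. A probe was kept if at least 2 of 3 arrays of 1 group or more had it well above background and not flagged as an outlier. One limma model of the 3 groups (limma 3.58.1, R 4.3.3, with version 1.17.8 of data.table) gave each difference, its SE and its p, adjusted by the Benjamini-Hochberg method over 41105 probes; the thresholds are an adjusted p of at most 0.01 and, from the methods, a log2 fold change of 2 or more in either direction. Fits were tested on simulated data. The number of arrays limits the precision.

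Named members are 12 tail genes with a value out of 26 set by name, every member called by the study's thresholds, and the largest rise and fall that passed in each role group, which came to 26 names; further names complete the groups and were chosen after their values were seen. The members, groups and lists were chosen with earlier results of these data known.

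Arrays with the same replicate number deviated together between oligospermic and control (correlations of 0.48, 0.14 and 0.10), where the number is also the slide. Between t(1;14) and control they did not (-0.28, -0.19 and 0.14), nor between t(1;14) and oligospermic (-0.42, -0.33 and 0.12). Arrays of the same slide did, at 0.34, 0.11 and 0.12 and at 0.49, 0.29 and 0.33. The main model paired no arrays and held no block, so slide and replicate number enter only among the alternatives. Alternatives were scaling by the 75 percentile, normexp, other filters, the 6 arrays of a comparison alone, slide or replicate number as a block, an intensity trend, the authors' log2 values, another choice of probe, a fold threshold of 1 and leaving out each array. Symbols were matched to RefSeq (Sscrofa11.1), which held all 66 members; no coordinates were used.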

Additional observations from a re-analysis of the deposited data

How the results depend on the processing

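No median or named gene that passed changed direction in the t(1;14) comparisons under the alternatives run. With a threshold of 1 in place of 2 on the absolute log2 fold change, 28 members were called in t(1;14) against control and 31 against oligospermic, beside 8422 and 9621 of all 41105 probes. With normexp the medians were -0.58 and -0.59, and 5 members were called against oligospermic, where calls over all probes went from 2683 to 1088; scaling by the 75 percentile moved that median to -0.89. In oligospermic against control, 1 member passed lower (AKAP13) with a filter in every group, with an intensity trend, with the authors' log2 values and without control replicate 1, where lower calls over all probes were 46 of 36451, 75 of 41105, 63 of 38759 and 84 of 40763. Cause was not tested for any of these.

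With replicate number as a block, 36 members passed lower and 3 higher in t(1;14) against control, 0 and 0 in oligospermic against control, and 35 and 4 in t(1;14) against oligospermic; medians were unchanged and no call by both thresholds was added or lost in number (10, 0 and 9). Over all 41105 probes the block gave 6595 lower and 6228 higher, 13 and 20, and 7197 and 7583 in the same order. Calls by both thresholds over all probes were 2346, 30 and 2644.

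Leaving out 1 array gave 31 to 38 lower, 3 to 6 higher and 9 to 11 called members in t(1;14) against control, with medians of -0.75 to -0.67. Against oligospermic it gave 34 to 39 lower, 3 to 8 higher and 8 to 10 called, with medians of -0.75 to -0.65. In oligospermic against control it gave 0 to 1 lower, 0 higher and 0 called, with medians of -0.06 to 0.03. Over all probes it gave 5910 to 7369 lower and 4740 to 8836 higher, 6294 to 8511 and 5935 to 10199, and 15 to 150 and 21 to 135 in these comparisons. Calls by both thresholds over all probes were 2231 to 2544, 2215 to 2807 and 33 to 126 in the same order. Of the 37 lower members in t(1;14), 30 passed in all 19 settings; DNAH9, DNAI2, DNAL1, DYNLL1, KIF23, KIF2A and RSPH9 did not, and of the 4 higher members AKAP9 did not. Dim genes such as CRISP1 and KIF13B are limited by signal near background.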
